A study of Mus musculus with 12 samples.

Results

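The mRNAs of the nuclear-encoded subunits of oxidative phosphorylation were measured in mouse epididymal white adipose tissue. The subunits were chosen by gene name: the Nduf a, b, c, s and v series of complex I, Sdha to Sdhd of complex II, the Uqcr genes of complex III, the Cox 4 to 8 genes of complex IV and the Atp5 genes of complex V. This rule found 79 of 22947 genes, of which 34 belonged to complex I, 4 to complex II, 8 to complex III, 17 to complex IV and 16 to complex V. The rule used gene names only, but the set was chosen with earlier results of these data known. The complexes follow the names: *Ndufa4* is counted in complex I by its name although its protein is now placed in complex IV. Its relative *Ndufa4l2* is also counted in complex I by name. *Atp5s* and *Atp5sl* carry the ATP synthase name but are not core parts of the enzyme. The annotation lists *Atp5sl* under another name, *Dmac2*, and both genes are counted in complex V by name only. The name rule passes over *Cox4i1*, *Atp5o*, *Ndufb2*, *Ndufb8* and *Ndufs8*: no row was found for the first, and the rows of the others carry a neighbouring gene's name.

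Complexes I to IV sit in the inner mitochondrial membrane and pass electrons from NADH and succinate to oxygen, while complexes I, III and IV pump protons. Complex V, the ATP synthase, lets the protons flow back and makes ATP. The complexes are built from subunits of both the nuclear and the mitochondrial genome, except complex II, whose subunits are all nuclear. White adipocytes hold fewer mitochondria than brown adipocytes and use them for fatty acid handling as well as for ATP, and their respiratory gene expression is known to be low in obesity.

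The tissue came from male C57BL/6J mice, 21 weeks old, that had been on their diets for 16 weeks from the age of 5 weeks. The ND group received a normal diet and the HFD group a high-fat diet. Mice of the CLE group ate the high-fat diet with 1.5% (w/w) of an ethanol extract of chrysanthemum leaf, and those of the LU group ate the high-fat diet with 0.003% (w/w) luteolin, a plant flavone. From each group 3 mice were sequenced, with 1 RNA-seq library each. The paper calls them representative samples of larger groups and does not state how they were picked. Values are given in the order ND mice 2, 3 and 4, HFD mice 12, 15 and 18, CLE mice 2, 4 and 11, and LU mice 2, 3 and 8.

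Expression is given in FPKM, fragments per kilobase of transcript, scaled for library size, summed over the transcripts of a gene. The totals over all genes were between 435095 and 455040 FPKM per library, and mice of a group correlated at r = 0.9782 to 0.9915 across genes on the log2(FPKM + 1) scale. The read depth is unknown, since only FPKM were given. A letter R of unstated meaning, with a common suffix in the table's header, marks 4 libraries, those of mice 3 and 4 in ND, mouse 4 in CLE and mouse 2 in LU. No HFD library has it. The column read as ND mouse 4 was assigned from its number, its letter and the ND columns it stood with, not from its full label. The defining white adipocyte genes were abundant in every library (*Adipoq* 1107 to 2292 FPKM), and *Ucp1*, which marks brown adipocytes, did not exceed 0.46 FPKM. Bulk RNA was measured, so fewer adipocytes and less subunit mRNA per adipocyte cannot be told apart.

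The subunits were among the abundant mRNAs of the tissue. Their mean level over the 12 libraries had a median of 86 FPKM against 11.2 FPKM for the 12775 genes tested. Together the 79 genes held 2.59, 3.09 and 2.66% of all FPKM in the ND mice. The share was 1.72, 1.81 and 1.69% in the HFD mice, below every other library. It was 2.76, 2.29 and 2.13% in the CLE mice and 2.19, 2.58 and 2.23% in the LU mice, and the first CLE value is raised by 1 transcript row of *Ndufa3* that is described under complex I.

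For the tests, genes with at least 1 FPKM in at least 3 libraries were fitted together with limma on log2(FPKM + 1), and p-values were adjusted over all 12775 genes. Calls required both an adjusted p below 0.05 and a change of more than 1.5-fold; the count at the adjusted p alone is given beside the count of calls. Each log2 fold change is given ± its standard error (SE). Of the 79 subunit genes, 76 passed the filter. The other 3, *Cox6a2*, *Cox7b2* and *Cox8c*, are tissue isoforms of complex IV at or near 0 FPKM. HFD mice serve as reference in the CLE and LU comparisons and as the test group in the comparison with ND, so these comparisons are not independent, and they are given side by side.

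Most subunits were lower in the HFD mice than in the ND mice. Of 76, 40 were called lower (52.6%) and none was called higher, where 10.8% of all genes tested were called lower. At the adjusted p alone, 63 were lower (82.9%, against 24.8% of all genes) and none was higher. For 65 subunits (85.5%, against 29.3% of all genes) all 3 HFD mice lay below all 3 ND mice. The median log2 fold change was -0.63, or -35.3%, and 75 of 76 subunits had a value below 0, while the median over all genes was -0.019. Among genes with a mean of at least 5 FPKM, 10.5% were called lower. Without the letter R libraries only ND mouse 2 remained on the normal diet, and 23 subunits were called lower.

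CLE and LU mice had higher subunit levels than HFD mice, with median differences smaller than that between HFD and ND. In CLE against HFD, 34 subunits were higher at the adjusted p alone (44.7%, against 15.5% of all genes), none was lower, and the median log2 fold change was 0.31. Only *Ndufb9* was also past 1.5-fold (1.32%, against 6.33% of all genes); without CLE mouse 11 there were 3 such subunits (*Ndufb9*, *Atp5b* and *Ndufa3*, the last through 1 short transcript of CLE mouse 2), and without HFD mouse 15 there were 2 (*Ndufb9* and *Ndufa5*). For LU against HFD, 44 were higher at the adjusted p alone (57.9%, against 13.2%), none was lower, and the median was 0.41. The 5 called genes (6.58%, against 4.81% of all genes) were *Ndufa5*, *Ndufb9*, *Ndufa4*, *Cox7a2* and *Cox8a*. All 3 CLE mice exceeded all 3 HFD mice for 64 subunits (84.2%, against 24.4%), and all 3 LU mice did so for 63 (82.9%, against 25.6%).

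The counts at the adjusted p moved with single libraries. For CLE against HFD the count was 17 without HFD mouse 12, 19 without HFD mouse 18, 20 without CLE mouse 2 and 19 without CLE mouse 4. For LU against HFD it was 25 without HFD mouse 12, 27 without HFD mouse 18 and 26 without LU mouse 3. The LU calls past 1.5-fold numbered 2 without LU mouse 3, 16 without LU mouse 2, 11 without HFD mouse 15 and 9 without LU mouse 8. The median log2 fold changes stayed between 0.29 and 0.35 for CLE and between 0.32 and 0.47 for LU in the 12 fits that left out 1 mouse each.

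Every subunit was then set to its own ND mean, and the median was taken over each complex. The median over the 34 complex I subunits was 90.2, 110.2 and 99.5% in ND, 62, 67.2 and 61.9 in HFD, 82.2, 81.5 and 79.3 in CLE and 77.4, 98.3 and 83.3 in LU mice. For the 8 subunits of complex III it was 88.1, 109.7 and 97.5% in ND, 60.8, 63.9 and 58.5 in HFD, 81.4, 78 and 76.4 in CLE and 74.9, 92.9 and 76.5 in LU mice. In both complexes the HFD mice lay below all other mice, and LU mouse 3 lay within the ND range while the other LU mice and all CLE mice lay below the ND mice. The same held for complex V but not for complexes II and IV. In complex II, where the lowest ND mouse was at 91.5%, CLE mouse 2 reached 92.5% and LU mouse 3 only 88.9%. In complex IV, where the lowest ND mouse was at 86.3%, CLE mouse 4 at 88.4% and LU mouse 8 at 87.7% also lay within the ND range.

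**Figure D1:**
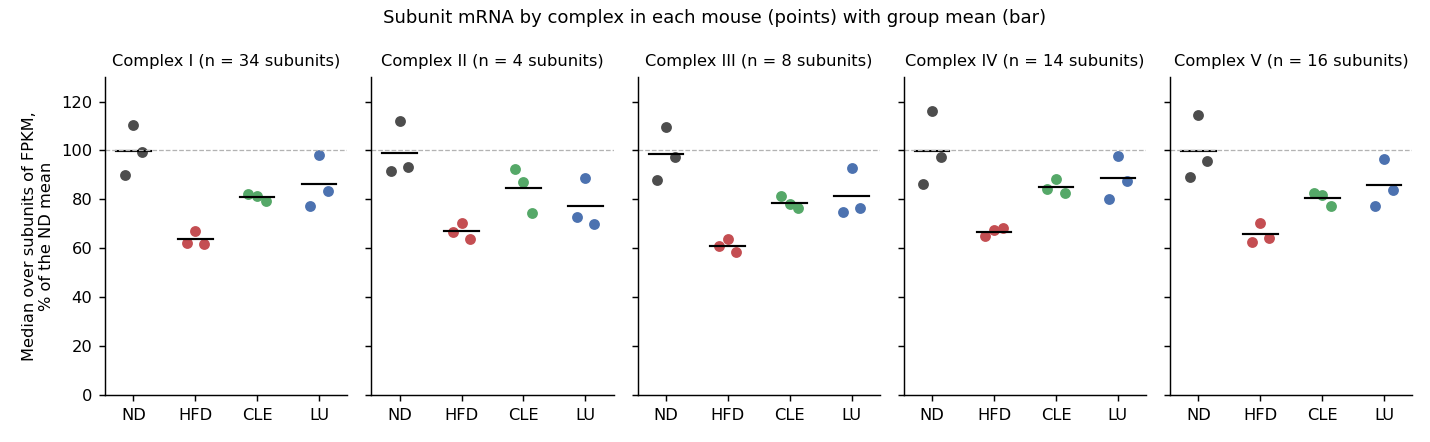
Subunit mRNA of complexes I to V in each mouse. The y axis gives the median over the tested subunits of FPKM as a percent of the ND mean, points are mice and bars are group means. The HFD mice lie between 58.5% and 70.5% in all 5 panels, below every mouse of the other groups except that 1 LU mouse of complex II, at 69.8%, lies within their range.

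Promoter sequences were read because so many subunits differed in 1 direction. Promoter windows from 250 bases before to 50 bases after the transcription start (RefSeq, GRCm38.p6) were found for 62 of the 79 genes, and 1 start per gene was read. The windows were searched on both strands for the core letters of 4 factors known to act on respiratory genes: GCATGCG (NRF1), CCGGAAG (ETS factors, among them GABP), AAGATGG (YY1) and AAGGTCA (estrogen-related receptors). The NRF1 letters are nearly their own reverse complement, so overlapping matches on both strands count as 1 promoter. NRF1 letters stood in 10 of the 62 promoters (16.1%), against 3.64% of all 27025 promoters and 6.63% of the 9931 promoters of tested genes. The ETS letters stood in 14 (22.6%, against 9.12% and 18.3%), the YY1 letters in 8 (12.9%, against 6.48% and 7.19%) and the ERR letters in 7 (11.3%, against 4.66% and 3.12%). At least 1 of the 4 was present in 30 of the 62 promoters (48.4%, against 21.7% and 31.1%). These were 16 of the 34 promoters of genes called lower in HFD and 14 of the other 28. The other 28 include genes lower at the adjusted p alone and the untested *Cox7b2*, so they are not a set of unchanged genes. For each complex, a promoter with such matches from a gene called lower in HFD, and the promoter of *Ndufa11*, whose level did not pass in any comparison, are shown in the direction of transcription, with the matched letters in capitals.
Ndufs3, chr2:90904672-90904971, minus strand: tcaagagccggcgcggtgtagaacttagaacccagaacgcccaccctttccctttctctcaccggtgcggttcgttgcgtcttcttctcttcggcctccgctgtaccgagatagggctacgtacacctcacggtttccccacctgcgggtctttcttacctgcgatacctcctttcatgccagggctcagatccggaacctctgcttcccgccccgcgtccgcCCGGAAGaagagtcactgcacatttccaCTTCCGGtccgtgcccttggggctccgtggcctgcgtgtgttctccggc
Sdhb, chr4:140961021-140961320, plus strand: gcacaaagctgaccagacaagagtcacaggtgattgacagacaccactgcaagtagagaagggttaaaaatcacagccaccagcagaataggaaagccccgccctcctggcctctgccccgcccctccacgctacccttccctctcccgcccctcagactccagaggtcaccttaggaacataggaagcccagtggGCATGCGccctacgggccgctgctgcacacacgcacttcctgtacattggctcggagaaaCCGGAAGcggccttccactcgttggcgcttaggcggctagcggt
Uqcr11, chr10:80406772-80407071, minus strand: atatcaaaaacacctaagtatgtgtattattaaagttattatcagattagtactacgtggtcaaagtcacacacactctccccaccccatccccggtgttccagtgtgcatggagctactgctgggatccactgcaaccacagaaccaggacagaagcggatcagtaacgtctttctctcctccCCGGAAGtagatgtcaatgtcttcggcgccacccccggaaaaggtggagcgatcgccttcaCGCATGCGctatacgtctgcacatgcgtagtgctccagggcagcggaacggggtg
Cox6a1, chr5:115348909-115349208, minus strand: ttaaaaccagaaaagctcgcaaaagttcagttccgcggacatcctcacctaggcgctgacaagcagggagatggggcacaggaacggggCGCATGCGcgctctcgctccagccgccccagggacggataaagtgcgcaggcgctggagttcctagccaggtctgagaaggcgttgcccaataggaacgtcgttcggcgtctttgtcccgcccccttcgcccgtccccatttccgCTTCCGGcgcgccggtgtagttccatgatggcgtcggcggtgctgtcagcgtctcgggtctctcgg
Atp5k, chr5:108434350-108434649, minus strand: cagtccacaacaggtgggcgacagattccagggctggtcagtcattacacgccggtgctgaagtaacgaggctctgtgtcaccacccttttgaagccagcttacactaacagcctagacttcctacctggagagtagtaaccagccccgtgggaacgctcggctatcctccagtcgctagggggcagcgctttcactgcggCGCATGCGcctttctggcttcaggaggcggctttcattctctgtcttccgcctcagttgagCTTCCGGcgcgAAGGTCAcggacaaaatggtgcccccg
Ndufa11, chr17:56717512-56717811, plus strand: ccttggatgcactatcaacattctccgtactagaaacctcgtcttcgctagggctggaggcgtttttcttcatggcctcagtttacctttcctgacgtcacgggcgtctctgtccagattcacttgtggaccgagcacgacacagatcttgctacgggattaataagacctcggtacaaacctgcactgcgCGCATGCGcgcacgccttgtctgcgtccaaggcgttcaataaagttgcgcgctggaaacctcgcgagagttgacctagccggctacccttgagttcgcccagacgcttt
The promoters of *Uqcr11*, *Cox6a1*, *Atp5k* and *Sdhb* hold both NRF1 and ETS letters, and that of *Atp5k* holds ERR letters as well. Of the 4 motifs, that of *Ndufs3* holds ETS letters only and that of *Ndufa11* NRF1 letters only. These matches describe the windows and were not measured as bound sites.

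Complex I takes electrons from NADH. Of its 34 subunits, 18 were called lower in HFD than in ND and 29 were lower at the adjusted p alone (10.8% and 24.8% of all genes were). The median log2 fold change was -0.66. At the adjusted p alone, 19 were higher in CLE and 25 in LU than in HFD (15.5% and 13.2% of all genes were). The largest fall was in *Ndufb9*, an accessory subunit of the membrane arm, at 241, 300.2 and 234 FPKM in ND, 99.5, 122 and 108 in HFD, 191, 176 and 155 in CLE and 156, 204 and 177 in LU mice. The HFD mice lay below all other mice, and the CLE and LU mice lay between HFD and ND. The log2 fold change was -1.22 ± 0.13 (adjusted p = 2.1e-05) in HFD against ND, 0.66 ± 0.13 (adjusted p = 0.0029) in CLE against HFD and 0.70 ± 0.13 (adjusted p = 0.0032) in LU against HFD. About 39.3% of its FPKM lay in transcripts assembled with at least 1 new junction; the fall was also called without these rows.

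*Ndufa5*, an accessory subunit of the matrix arm, was at 49.95, 59.2 and 57 FPKM in ND, 21.8, 26.2 and 25.3 in HFD, 34.2, 35 and 38.8 in CLE and 34.3, 49.6 and 40.1 in LU mice. All HFD mice were below all others, and all CLE and LU mice were below all ND mice. It changed by -1.15 ± 0.13 (adjusted p = 2.7e-05) in HFD against ND, 0.54 ± 0.13 (adjusted p = 0.0076) in CLE against HFD and 0.72 ± 0.13 (adjusted p = 0.0022) in LU against HFD. *Ndufv1*, the core subunit that binds NADH, was at 96.7, 105 and 91.7 FPKM in ND, 54.7, 58.4 and 58.4 in HFD, 88.3, 83.3 and 78 in CLE and 74.9, 84.2 and 79.6 in LU mice. The groups did not overlap between HFD and any other diet, and the changes were -0.76 ± 0.085 (adjusted p = 2.5e-05), 0.53 ± 0.085 (adjusted p = 6.8e-04) and 0.47 ± 0.085 (adjusted p = 0.0024) in the same order of comparisons.

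Among the other core subunits, *Ndufs7*, which carries the last iron-sulfur cluster before the quinone, was at 63.1, 62.2 and 62.6 FPKM in ND, 38.6, 37 and 35.8 in HFD, 50.9, 55.2 and 51 in CLE and 41.8, 57.1 and 47.7 in LU mice. It fell in HFD by 0.74 on the log2 scale (SE 0.10, adjusted p = 1.2e-04). *Ndufs1*, the largest subunit, which carries several iron-sulfur clusters, was at 65.4, 72.7 and 55 FPKM in ND, 46.4, 50.1 and 43.8 in HFD, 63.5, 52.7 and 51.2 in CLE and 52.4, 56 and 46.9 in LU mice. Its difference passed the adjusted p but not 1.5-fold in HFD, at -0.45 ± 0.12 (adjusted p = 0.0097), and its CLE and LU mice did not pass against HFD. *Ndufa4* was at 398, 554 and 475 FPKM in ND, 259, 285 and 258 in HFD, 367, 356 and 344 in CLE and 372, 469.9 and 387 in LU mice, and its change was -0.82 ± 0.12 (adjusted p = 2.4e-04) in HFD, 0.41 ± 0.12 (adjusted p = 0.024) in CLE and 0.61 ± 0.12 (adjusted p = 0.0046) in LU, the last 2 against HFD. Its relative *Ndufa4l2*, known to be induced by hypoxia, was low at 8.09, 5.29 and 8.65 FPKM in ND, 5.04, 5.98 and 7.22 in HFD, 6.97, 7.21 and 7.12 in CLE and 8.33, 8.12 and 10.4 in LU mice. The groups of *Ndufa4l2* overlapped between HFD and ND, where the difference was -0.22 ± 0.16 (adjusted p = 0.27), but all LU mice exceeded all HFD mice, with 0.50 ± 0.16 (adjusted p = 0.042).

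Further complex I subunits called lower in HFD included *Ndufb10*, *Ndufb11*, *Ndufa10*, *Ndufa12*, *Ndufa1*, *Ndufs5*, *Ndufc1*, *Ndufa6*, *Ndufc2*, *Ndufb7*, *Ndufs3* and *Ndufa7*, with log2 fold changes between -0.84 and -0.65. Lower at the adjusted p alone were *Ndufs6*, *Ndufa2*, *Ndufa13*, *Ndufb4*, *Ndufa9*, *Ndufb6*, *Ndufv2*, *Ndufv3*, *Ndufb5* and *Ndufs4*, with values between -0.58 and -0.43.

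The 5 complex I subunits that did not pass the adjusted p in HFD against ND were *Ndufa11*, *Ndufa3*, *Ndufa4l2*, *Ndufa8* and *Ndufb3*. *Ndufa11*, a membrane arm subunit, was low throughout at 5.28, 8.33 and 6.91 FPKM in ND, 6.03, 6.72 and 5.61 in HFD, 6.03, 6.5 and 5.99 in CLE and 6.24, 7.48 and 6.89 in LU mice, with all groups overlapping and a difference of -0.12 ± 0.13 (adjusted p = 0.46). For *Ndufa3*, a small membrane arm subunit, CLE mouse 2 stood at 2024 FPKM while the other 11 libraries ranged from 154 to 254 FPKM. In that mouse 1817 FPKM sat in 1 short transcript that was at 0 in every other library. Without that transcript the gene was at 191, 254 and 237 FPKM in ND, 163, 154 and 162 in HFD, 208, 203 and 187 in CLE and 208, 213 and 205 in LU mice, and the HFD mice lay below all others. With transcripts under 300 bases left out, *Ndufa3* changed by -0.50 ± 0.10 in HFD (adjusted p = 0.0016), 0.32 ± 0.10 in CLE (adjusted p = 0.029) and 0.39 ± 0.10 in LU (adjusted p = 0.015), the last 2 against HFD. With the short transcripts kept, none of these 3 comparisons passed when all 12 libraries were fitted together, while HFD against ND and LU against HFD passed without CLE mouse 2, and CLE against HFD passed without CLE mouse 11.

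**Figure D2:**
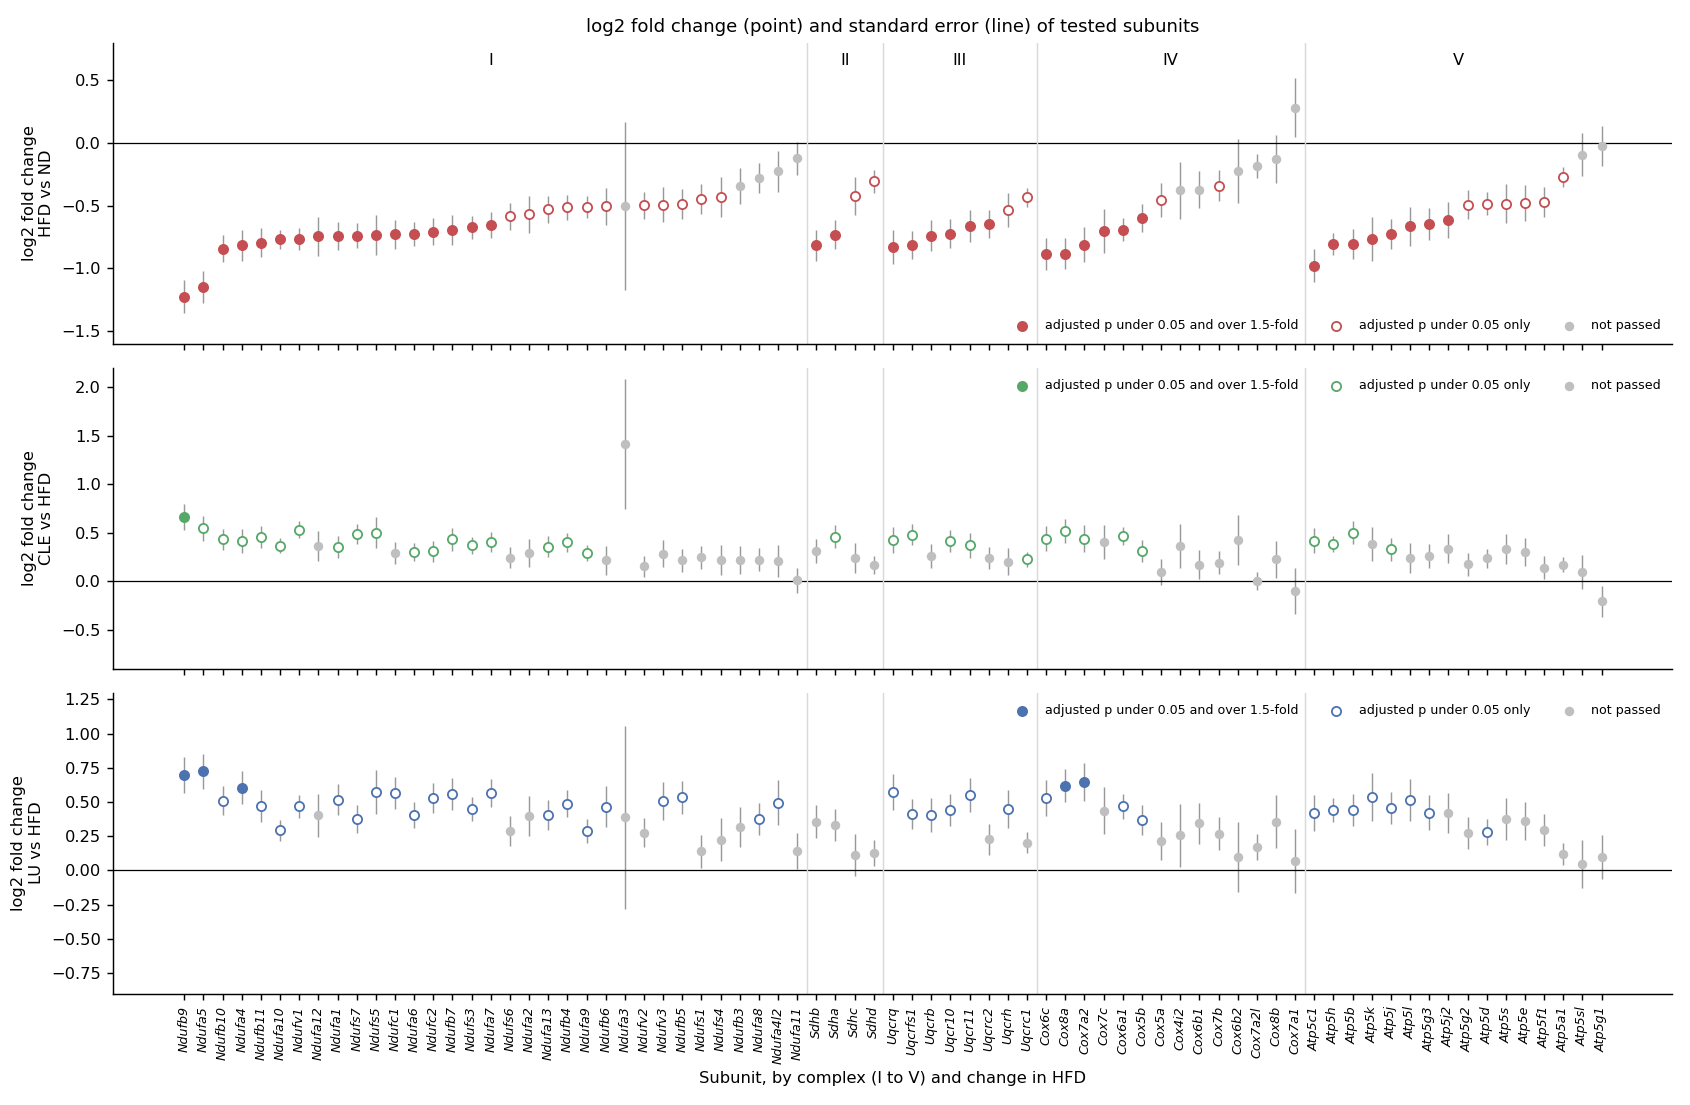
log2 fold change of 75 of the 76 tested subunits, ordered by complex and by the change in HFD against ND. Points are limma estimates, vertical lines are standard errors, filled points passed the adjusted p and 1.5-fold, open points passed the adjusted p alone and grey points passed neither. Nearly all points lie below 0 in the upper panel and above 0 in the middle and lower panels, and *Ndufa3* stands apart with a wide error.

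Complex II, succinate dehydrogenase, links the citrate cycle to the chain. All 4 subunits were lower in HFD than in ND at the adjusted p, 2 of them past 1.5-fold (24.8% and 10.8% of all genes were). At the adjusted p, 1 of the 4 was higher in CLE than in HFD and none in LU (15.5% and 13.2% of all genes were). The flavoprotein *Sdha* was at 468, 444 and 373 FPKM in ND, 276, 256 and 238 in HFD, 378, 375 and 309 in CLE and 311, 358 and 304 in LU mice. Every HFD value lay below every value of the other groups, with changes of -0.73 ± 0.12 (adjusted p = 3.5e-04) in HFD against ND, 0.46 ± 0.12 (adjusted p = 0.011) in CLE against HFD and 0.33 ± 0.12 (adjusted p = 0.054) in LU against HFD. *Sdhb*, the iron-sulfur subunit, was at 76.7, 100.03 and 79.2 FPKM in ND, 48.1, 48 and 47.1 in HFD, 62.9, 60.7 and 55 in CLE and 57.6, 72.3 and 55.5 in LU mice. It fell most, by 0.81 on the log2 scale (SE 0.12, adjusted p = 2.2e-04), and did not pass in CLE, at 0.31 ± 0.12 (adjusted p = 0.071). Its LU difference of 0.36 ± 0.12 had an adjusted p of 0.05003 and did not pass either.

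The 2 membrane anchors of complex II had smaller fold changes. *Sdhc* was at 47.8, 59.8 and 49.1 FPKM in ND, 35.8, 42.5 and 37.5 in HFD, 50.5, 47.3 and 39.9 in CLE and 38.1, 53.3 and 35.8 in LU mice, where the HFD mice overlapped both CLE and LU mice. *Sdhd* was at 91, 109.6 and 98 FPKM in ND, 82.5, 80.7 and 77.3 in HFD, 99.5, 86.3 and 84.5 in CLE and 86.2, 92.5 and 84.7 in LU mice. Their changes in HFD were -0.42 ± 0.15 (adjusted p = 0.036) and -0.31 ± 0.093 (adjusted p = 0.017), and neither passed in CLE or LU against HFD. Whether the anchors differ from *Sdha* and *Sdhb* was not tested.

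Complex III passes electrons from ubiquinol to cytochrome c. All 8 subunits were lower in HFD than in ND at the adjusted p, 6 of them past 1.5-fold (24.8% and 10.8% of all genes were), with a median log2 fold change of -0.69. The Rieske iron-sulfur protein *Uqcrfs1* was at 97.8, 105 and 97 FPKM in ND, 55.4, 59 and 54.8 in HFD, 91.5, 77.2 and 69.8 in CLE and 70.9, 86 and 70.1 in LU mice. Its HFD mice were below all others and its changes were -0.81 ± 0.11 (adjusted p = 1.1e-04) in HFD, 0.48 ± 0.11 (adjusted p = 0.0064) in CLE and 0.41 ± 0.11 (adjusted p = 0.018) in LU. The small subunit *Uqcrq*, next to cytochrome b, was at 119, 169 and 139.7 FPKM in ND, 75.3, 83.8 and 78.1 in HFD, 105, 106 and 109 in CLE and 107, 141 and 108 in LU mice, with a change of -0.83 ± 0.13 (adjusted p = 3.5e-04) in HFD. *Uqcrb*, which also lies near the quinone site, was at 263, 388 and 306 FPKM in ND, 187, 194 and 184 in HFD, 233, 226 and 221 in CLE and 231, 275 and 246 in LU mice, with a change of -0.74 ± 0.12 (adjusted p = 4.8e-04). In all 3 genes the HFD range was clear of the other groups.

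The core proteins of complex III, *Uqcrc1* and *Uqcrc2*, face the matrix. *Uqcrc1* was at 96.1, 101 and 97.1 FPKM in ND, 71.4, 74 and 72.1 in HFD, 92.9, 84.2 and 78.1 in CLE and 83.3, 85.2 and 82.5 in LU mice, and had the smallest difference of the complex at -0.43 ± 0.078 (adjusted p = 7.7e-04). *Uqcrc2* was at 142, 147 and 116 FPKM in ND, 84.9, 87.9 and 83.6 in HFD, 115, 94.5 and 95.6 in CLE and 98.1, 111 and 92.3 in LU mice, with -0.65 ± 0.11 (adjusted p = 7.0e-04). The other called subunits of complex III were *Uqcr10* and *Uqcr11*, at -0.72 to -0.66, and *Uqcrh* passed the adjusted p alone at -0.53. Higher than in HFD at the adjusted p were 5 of the 8 subunits in CLE and 6 in LU (15.5% and 13.2% of all genes were).

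**Figure D3:**
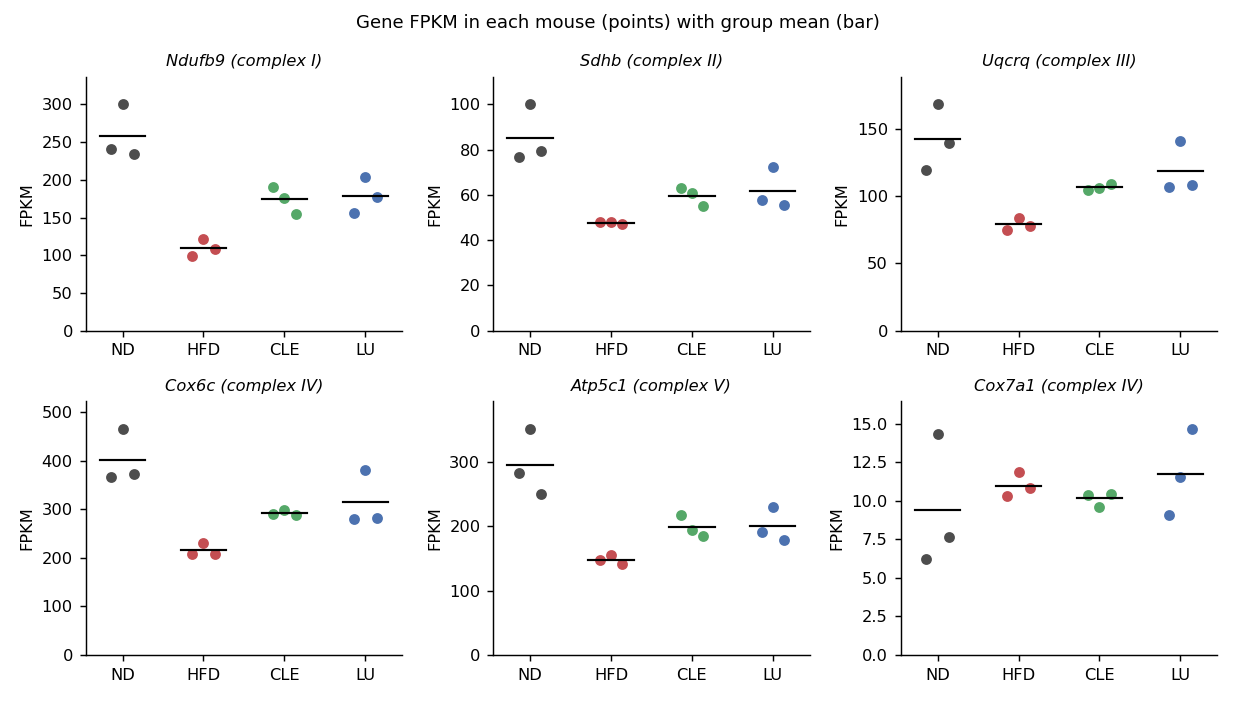
FPKM of the subunit with the largest fall of each complex, and of *Cox7a1*, in each mouse. Points are mice and bars are group means, and each y axis starts at 0. The HFD mice are the lowest in *Ndufb9*, *Sdhb*, *Uqcrq*, *Cox6c* and *Atp5c1*, while the *Cox7a1* groups overlap.

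Complex IV, cytochrome c oxidase, hands the electrons to oxygen. Of its 17 genes 14 were tested, 6 were called lower in HFD than in ND and 8 were lower at the adjusted p (10.8% and 24.8% of all genes were). At the adjusted p, 5 were higher in CLE and 5 in LU than in HFD (15.5% and 13.2% of all genes were). *Cox6c*, a small membrane subunit, was at 365, 466 and 372 FPKM in ND, 208, 231 and 207 in HFD, 289, 299 and 288 in CLE and 280.1, 380.1 and 282 in LU mice. Its change in HFD was -0.89 ± 0.13 (adjusted p = 1.8e-04). *Cox8a*, the general form of the smallest subunit, was at 511, 657 and 563 FPKM in ND, 307, 340.5 and 288 in HFD, 445, 476 and 417 in CLE and 428, 556 and 461 in LU mice. It changed by -0.88 ± 0.12 (adjusted p = 1.3e-04) in HFD, by 0.52 ± 0.12 (adjusted p = 0.0075) in CLE and by 0.62 ± 0.12 (adjusted p = 0.0039) in LU. *Cox7a2*, the general form of subunit 7a, was at 62.5, 90.3 and 70.3 FPKM in ND, 40.3, 45.2 and 39.2 in HFD, 58.4, 59.1 and 52.3 in CLE and 57.6, 76.3 and 64.1 in LU mice, with changes of -0.81 ± 0.14 (adjusted p = 5.7e-04), 0.44 ± 0.14 (adjusted p = 0.031) and 0.65 ± 0.14 (adjusted p = 0.0059). In all 3 genes the HFD mice lay below all other mice.

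*Cox5b*, which binds zinc on the matrix side, was at 185, 234 and 205 FPKM in ND, 131, 145 and 135 in HFD, 177, 179.9 and 153 in CLE and 166, 198 and 168 in LU mice and changed by -0.60 ± 0.11 (adjusted p = 8.9e-04) in HFD. *Cox5a*, also on the matrix side, was at 89.3, 127 and 103 FPKM in ND, 70.6, 82.1 and 77.3 in HFD, 78.3, 79.3 and 88.3 in CLE and 78.3, 105 and 85.7 in LU mice. Its change in HFD was -0.45 ± 0.14 (adjusted p = 0.017), and its CLE and LU mice overlapped the HFD mice. *Cox6a1*, the general form of subunit 6a, was at 404, 435 and 405 FPKM in ND, 262, 271 and 237 in HFD, 348, 386 and 332 in CLE and 335, 383 and 349 in LU mice, with -0.69 ± 0.090 (adjusted p = 8.1e-05) in HFD, and *Cox6b1*, which faces the intermembrane space, was at 273, 421 and 386 FPKM in ND, 272, 291 and 258 in HFD, 296, 334 and 295 in CLE and 309.7, 399.6 and 340.3 in LU mice, with -0.37 ± 0.15 (adjusted p = 0.058). For *Cox6b1* the HFD and ND mice overlapped; whether the 2 subunits differ from each other was not tested. The remaining subunits were *Cox7c*, called lower at -0.70, and *Cox7b*, lower at the adjusted p alone at -0.34.

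The tissue and alternative isoforms of complex IV, known from muscle, brown fat, lung or testis, did not pass the adjusted p in HFD against ND. *Cox7a1*, the muscle and brown fat form of subunit 7a, was at 6.21, 14.4 and 7.65 FPKM in ND, 10.3, 11.9 and 10.8 in HFD, 10.4, 9.64 and 10.5 in CLE and 9.06, 11.6 and 14.7 in LU mice. ND mouse 3 was well above the other ND mice, the groups overlapped, and the difference was 0.28 ± 0.23 (adjusted p = 0.34) with an exact permutation p of 0.4 (two-sided; the smallest that 3 against 3 mice allow is 0.1). Without ND mouse 3 the difference was 0.60 ± 0.16 (adjusted p = 0.011), and *Cox7a1* was then called higher in HFD. Skeletal muscle markers, summed, were highest in CLE mouse 11 and HFD mouse 12, and *Cox7a1* was highest in LU mouse 8 and ND mouse 3. The part of muscle in the *Cox7a1* level was not tested. *Cox8b*, the muscle and brown fat form of subunit 8, was at 17, 20.5 and 15.6 FPKM in ND, 17.3, 17.2 and 13.7 in HFD, 21.8, 15.8 and 19.5 in CLE and 15.5, 28.3 and 20.4 in LU mice, with -0.13 ± 0.19 (adjusted p = 0.60). *Cox7a2l*, which helps complexes III and IV join into supercomplexes, was at 72.4, 82.8 and 74.7 FPKM in ND, 68.2, 68.3 and 65.2 in HFD, 64.9, 67 and 70.0 in CLE and 68.8, 86.5 and 73.6 in LU mice, with -0.18 ± 0.094 (adjusted p = 0.12).

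The rarest isoforms lay near the limit of the filter. *Cox4i2*, the lung form of subunit 4, was at 2.28, 1.74 and 3.22 FPKM in ND, 1.26, 1.41 and 2.17 in HFD, 1.4, 3.1 and 2.77 in CLE and 2.32, 1.49 and 2.56 in LU mice, and *Cox6b2*, the testis form of subunit 6b, at 1.54, 1.56 and 3.23 FPKM in ND, 2.52, 1.26 and 1.17 in HFD, 2.06, 3.39 and 2.13 in CLE and 1.19, 1.74 and 2.52 in LU mice; both overlapped in every comparison. *Cox6a2*, the muscle form of subunit 6a, was listed at 0, 0 and 0 FPKM in ND, 0.94, 0.634 and 1.17 in HFD, 0.0976, 0 and 0.405 in CLE and 0.283, 0.198 and 0.567 in LU mice. It was at 0 in all 3 ND mice and highest in the 3 HFD mice, did not pass the filter, and was called higher in HFD than in ND when no filter was used, at 0.93 ± 0.15 (adjusted p = 9.8e-04). *Cox8c*, a testis form, was listed at 0.21 FPKM in ND mouse 3 and at 0 elsewhere, and *Cox7b2*, also a testis form, at 0 in all 12 libraries.

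The share of each rarer isoform in its set was compared next. *Cox7a1* held a share of the summed *Cox7a1* and *Cox7a2* FPKM of 9.03, 13.7 and 9.82% in ND, 20.4, 20.8 and 21.7 in HFD, 15.1, 14 and 16.7 in CLE and 13.6, 13.2 and 18.6 in LU mice. Every HFD mouse was above every mouse of the other 3 groups. The mean share was 20.9 ± 0.65% in HFD and 10.9 ± 2.5% in ND (SD, n = 3 mice each; exact permutation p = 0.1, the smallest possible). The *Cox8b* share of the subunit 8 FPKM was 3.21, 3.03 and 2.7% in ND, 5.34, 4.82 and 4.55 in HFD, 4.66, 3.22 and 4.47 in CLE and 3.51, 4.83 and 4.23 in LU mice, where HFD lay above ND and overlapped CLE and LU. For *Ndufa4l2* beside *Ndufa4* the shares of all groups overlapped, from 0.945 to 2.72%.

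**Figure D4:**
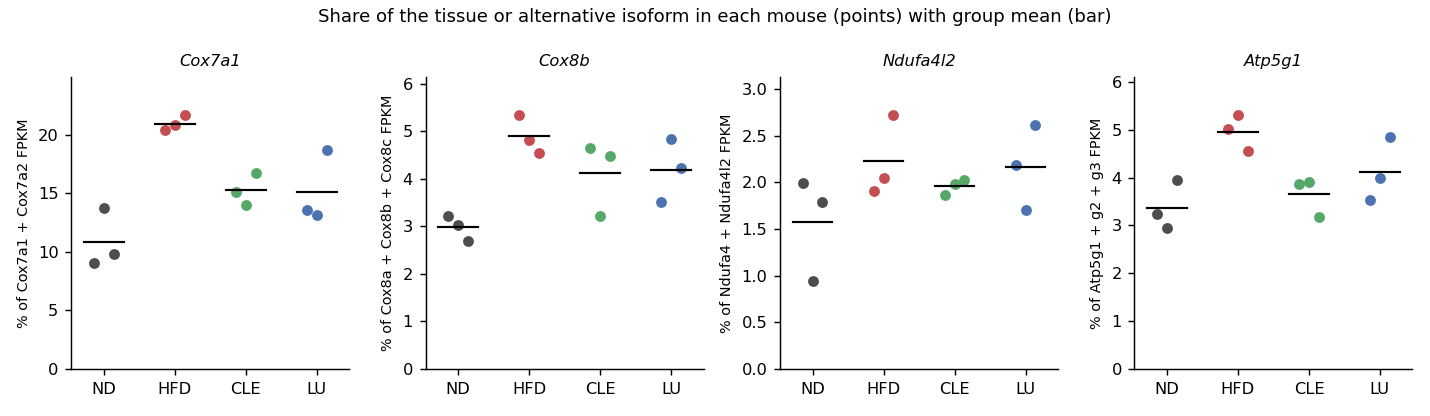
Share of the rarer isoform in the summed FPKM of its set, in percent, for *Cox7a1*, *Cox8b*, *Ndufa4l2* and *Atp5g1*. Points are mice, bars are group means and each y axis starts at 0. The HFD mice have the highest *Cox7a1* shares, from 20.4% to 21.7%, while the *Ndufa4l2* shares overlap in all groups.

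Complex V makes ATP with a catalytic head, a central stalk, a peripheral stalk and a membrane ring. Of its 16 genes 8 were called lower in HFD than in ND and 14 were lower at the adjusted p (10.8% and 24.8% of all genes were). At the adjusted p, 4 were higher in CLE and 8 in LU than in HFD (15.5% and 13.2% of all genes were). *Atp5c1*, the gamma subunit of the turning central stalk, was at 283, 352 and 251 FPKM in ND, 148, 156 and 141 in HFD, 217, 194 and 184 in CLE and 191, 229.8 and 179 in LU mice. Its changes were -0.98 ± 0.13 (adjusted p = 1.0e-04) in HFD, 0.42 ± 0.13 (adjusted p = 0.03) in CLE and 0.42 ± 0.13 (adjusted p = 0.034) in LU. *Atp5b*, the catalytic beta subunit and the most abundant of the 79, was at 1710.0, 1653 and 1407 FPKM in ND, 901, 947 and 869 in HFD, 1503, 1265 and 1108 in CLE and 1149.8, 1349 and 1199 in LU mice, with -0.81 ± 0.12 (adjusted p = 2.0e-04), 0.50 ± 0.12 (adjusted p = 0.0077) and 0.44 ± 0.12 (adjusted p = 0.019). *Atp5h*, subunit d of the peripheral stalk, was at 209.9, 235 and 207 FPKM in ND, 123, 128 and 119.6 in HFD, 167, 157 and 160.4 in CLE and 153, 183 and 170.5 in LU mice, with -0.81 ± 0.087 (adjusted p = 2.1e-05) in HFD. All 3 genes had HFD values below those of every other mouse.

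The alpha subunit *Atp5a1*, which alternates with beta in the head, was at 390.4, 419.9 and 388 FPKM in ND, 325, 339 and 329.6 in HFD, 411, 365 and 347 in CLE and 363, 359.9 and 358 in LU mice. Its difference in HFD passed the adjusted p only, at -0.27 ± 0.080 (adjusted p = 0.016), beside -0.81 ± 0.12 for beta; the difference between the 2 genes was not tested. The 3 genes *Atp5g1*, *Atp5g2* and *Atp5g3* encode the same c subunit of the ring. *Atp5g3*, the most abundant, was at 325, 441 and 347 FPKM in ND, 214, 253 and 240.3 in HFD, 302, 272 and 273 in CLE and 283, 359 and 309.9 in LU mice and changed by -0.64 ± 0.13 (adjusted p = 0.0015) in HFD. *Atp5g2* was at 89.1, 102 and 80.1 FPKM in ND, 61, 68.8 and 61.4 in HFD, 71.7, 74.1 and 69.8 in CLE and 70.9, 91.2 and 71.2 in LU mice, with -0.49 ± 0.12 (adjusted p = 0.0044). *Atp5g1* was at 13.9, 16.4 and 17.6 FPKM in ND, 14.5, 18 and 14.4 in HFD, 15, 14.1 and 11.3 in CLE and 13, 18.7 and 19.4 in LU mice, overlapped in all groups and had -0.026 ± 0.16 (adjusted p = 0.91). The *Atp5g1* share of the 3 was 3.24, 2.94 and 3.94% in ND, 5.01, 5.31 and 4.56 in HFD, 3.86, 3.92 and 3.18 in CLE and 3.54, 3.98 and 4.85 in LU mice, above ND and CLE in all HFD mice. The other called subunits were *Atp5k*, *Atp5j*, *Atp5l* and *Atp5j2*, at between -0.77 and -0.61, and *Atp5d*, *Atp5s*, *Atp5e* and *Atp5f1* passed the adjusted p alone, at between -0.48 and -0.47.

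*Atp5sl*, at 6.5, 5.84 and 6.58 FPKM in ND, 5.75, 4.9 and 7.06 in HFD, 5.17, 6.56 and 7.37 in CLE and 6.67, 4.4 and 7.53 in LU mice, did not pass in any comparison.

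The CLE and LU diets differed in agent and dose, and their mice were compared directly. None of the 76 subunits passed the adjusted p in either direction between CLE and LU (limma; 0% of all genes were higher and 0.00783% lower), and 2, *Ndufb5* and *Ndufc1*, had an unadjusted p under 0.05, both lower in CLE. The median log2 difference of CLE against LU was -0.082, and without LU mouse 3 it was 0.010. For *Ndufb9* the difference was -0.037 ± 0.13 with a 95% interval of -0.33 to 0.25, for *Atp5b* 0.060 ± 0.12 with -0.20 to 0.32, and for *Ndufa5* -0.18 ± 0.13 with -0.46 to 0.10. Differences within these intervals were not excluded.

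Against ND, the CLE and LU mice were lower for some subunits. At the adjusted p alone, 9 were lower in CLE (11.8%, against 1.91% of all genes) and 12 in LU (15.8%, against 4.12%), and none was higher in either. *Ndufa5* was the only one called past 1.5-fold, in CLE against ND (1.32%, against 0.853% of all genes), at -0.61 ± 0.13 (adjusted p = 0.026); this call was lost in 12 of its 28 refits, among them those without ND mouse 3, CLE mouse 4 or CLE mouse 11, and 2 subunits were called without ND mouse 4 or CLE mouse 2. None was called in LU, and 2 were without ND mouse 4 or LU mouse 3. The median log2 fold change was -0.29 for CLE and -0.21 for LU. Others past the adjusted p in CLE included *Ndufb9*, *Ndufa6*, *Ndufb10*, *Ndufa10*, *Sdhb*, *Atp5c1* and *Atp5h*. In LU they included *Ndufb9*, *Ndufa6*, *Ndufa10*, *Ndufs7*, *Ndufv1*, *Sdha*, *Sdhb*, *Uqcrc2*, *Uqcrfs1*, *Atp5c1* and *Atp5h*. Both comparisons use the same ND mice. The CLE count was 0 without CLE mouse 11, 1 without CLE mouse 4, 2 without ND mouse 2, 1 without ND mouse 3, 5 without HFD mouse 12 and 4 without HFD mouse 18, and the LU count was 19 without LU mouse 3, 1 without LU mouse 2, LU mouse 8 or ND mouse 3, and 6 without any 1 of the HFD mice.

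Markers of other cells moved with the same groups. The summed level of the 10 white adipocyte markers was 32908 to 34382 FPKM in ND, 16384 to 18581 in HFD, 25562 to 28173 in CLE and 24302 to 29602 in LU mice, and 7 of the 10 genes were called lower in HFD than in ND (10.8% of all genes were) while *Lep* was called higher. Of these 10 genes, 7 were called higher in CLE and 4 in LU than in HFD (6.33% and 4.81% of all genes were), and *Lep* was called lower in both. The 10 macrophage markers summed to 328 to 496 FPKM in ND, 2907 to 3383 in HFD, 586 to 1028 in CLE and 960.3 to 1186 in LU mice, and all 10 were called higher in HFD than in ND and lower in CLE and in LU than in HFD. Of all 12775 genes tested, 1899 were called higher in HFD than in ND, and 1296 were called lower in CLE and 976 in LU than in HFD. The part of the adipocyte and macrophage markers in the subunit differences was not tested. The 11 skeletal muscle markers with rows summed to at most 28.7 FPKM, in CLE mouse 11, with 11.2 FPKM in HFD mouse 12 next. Brown and beige markers summed to 23.4 to 24.9 FPKM in ND and 27.5 to 32.2 in HFD, 12.5 to 29 in CLE and 18.5 to 21 in LU mice. *Kcnk3* held the largest part of each sum, and the markers did not move together. *Cidea* was at 5.94, 3.99 and 3.25 FPKM in ND, 1.66, 0.981 and 0.77 in HFD, 1.44, 1.02 and 1.66 in CLE and 1.69, 1.26 and 0.914 in LU mice. *Otop1*, *Cpt1b* and *Fabp3* were higher in every HFD mouse than in every ND mouse. Of the 7 brown and beige markers tested, 3 were called higher and 1 lower in HFD than in ND, where 1899 and 1374 of all 12775 genes were. Against HFD, 3 of the 7 were called lower in CLE and 2 in LU, where 1296 and 976 of all genes were, and none was called higher. The 8 liver markers summed to 17 to 38.1 FPKM in ND, 3.52 to 14.1 in HFD, 9.62 to 32.8 in CLE and 6.55 to 9.21 in LU mice, so that every HFD sum lay below every ND sum. Of 7 tested, 2 were called lower in HFD than in ND and 1 higher in CLE than in HFD (10.8% and 6.33% of all genes were). The 10 testis and epididymis markers summed to 1.88 to 5.42 FPKM in ND, 0.217 to 2.19 in HFD, 0.0759 to 1.22 in CLE and 0.497 to 3.67 in LU mice. *Crisp1*, an epididymis gene, had the highest value among them, 5.13 FPKM in ND mouse 4, and *Lcn5*, another, was at 0 in all 12 libraries. The part of these markers in the subunit differences was not tested either.

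**Figure D5:**
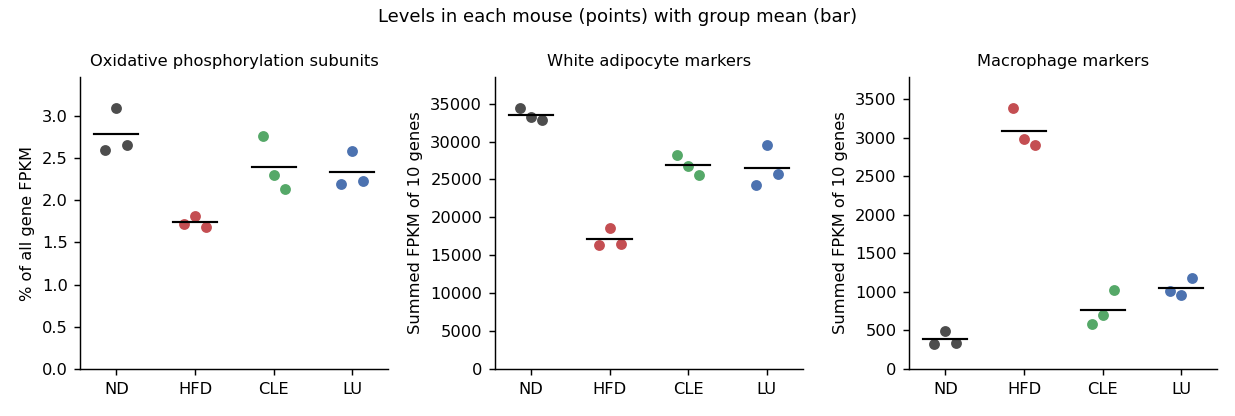
Share of the 79 subunit genes in all gene FPKM (left), summed FPKM of 10 white adipocyte markers (middle) and of 10 macrophage markers (right) in each mouse. Points are mice, bars are group means and each y axis starts at 0. The HFD mice are the lowest in the left and middle panels and the highest in the right panel.

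Other genes of the pathway were lower, higher or did not pass in HFD against ND. Of 5 further nuclear subunits or inhibitors outside the name rule, *Cyc1*, the cytochrome c1 of complex III, was at 91, 112 and 94.2 FPKM in ND, 60.6, 63.7 and 59.4 in HFD, 83.8, 75.9 and 68.4 in CLE and 75.1, 84.8 and 70.2 in LU mice and fell in HFD with -0.68 ± 0.11 (adjusted p = 3.4e-04). *Usmg5*, a small ATP synthase subunit, was at 190.0, 270.2 and 229 FPKM in ND, 152, 168 and 132 in HFD, 205, 181 and 186 in CLE and 179.5, 217 and 189 in LU mice, with -0.60 ± 0.14 (adjusted p = 0.0034), and *Ndufab1*, the acyl carrier of complex I, was lower at the adjusted p alone with -0.51 ± 0.10 (adjusted p = 0.0019). *Atp5mpl*, another small ATP synthase subunit, did not pass, at -0.34 ± 0.17 (adjusted p = 0.12). *Atpif1*, the inhibitor of the ATP synthase, moved the other way, at 26.7, 44.8 and 39.1 FPKM in ND, 58.1, 54 and 60.0 in HFD, 35, 35.2 and 36.1 in CLE and 37.4, 51.3 and 48.1 in LU mice. All HFD mice were above all others, and it rose by 0.65 ± 0.17 (adjusted p = 0.0067) in HFD against ND and fell with -0.68 ± 0.17 (adjusted p = 0.0089) in CLE against HFD, while LU against HFD did not pass, at -0.34 ± 0.17 (adjusted p = 0.16).

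Among 47 tested assembly factors, which build the complexes but are not part of them, 20 were lower and 3 higher in HFD at the adjusted p, where 24.8% of all genes were lower. Only 1 was called lower, where 10.8% of all genes were. The 3 higher genes were *Acad9*, *Cox10* and *Coa4*. The called gene was *Cox17*, a copper chaperone of complex IV, at 96.7, 121 and 124 FPKM in ND, 76.8, 72.2 and 69 in HFD, 97.3, 88.7 and 99.3 in CLE and 86.8, 128 and 96.3 in LU mice and -0.63 ± 0.14 (adjusted p = 0.0029). The list's median log2 fold change was -0.27 in HFD against ND, 0.14 in CLE against HFD and 0.19 in LU against HFD, where 12 and 11 genes were higher and none was lower at the adjusted p, against 15.5% and 13.2% of all genes higher. The 19 electron carrier and coenzyme Q genes had 11 lower and none higher at the adjusted p in HFD, where 24.8% of all genes were lower, and 2 of them were called. *Dhodh*, which passes electrons from pyrimidine synthesis to ubiquinone, was at -0.67 ± 0.15 (adjusted p = 0.0033), and *Gpd2*, the glycerol-3-phosphate dehydrogenase of mitochondria, at -0.59 ± 0.14 (adjusted p = 0.0044). At the adjusted p, *Coq2*, *Dhodh* and *Etfa* were higher in CLE than in HFD, and *Coq2* and *Etfa* in LU; 3 and 2 of 19 are near the shares of all genes, 15.5% and 13.2%. *Cycs*, cytochrome c itself, was at 32, 42.4 and 39.3 FPKM in ND, 36.4, 42.4 and 38.8 in HFD, 36.3, 34 and 40.3 in CLE and 37.2, 42.2 and 38.6 in LU mice, with all groups overlapping and 0.053 ± 0.11 (adjusted p = 0.72).

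The 17 regulators of mitochondrial biogenesis had a median log2 fold change of -0.071 in HFD, with 4 lower and none higher at the adjusted p, where 24.8% of all genes were lower; 4 of 17 is near that share. *Polg2*, a subunit of the mitochondrial DNA polymerase, was the only one called, at 4.43, 4.74 and 3.6 FPKM in ND, 2.0034, 2.63 and 2.27 in HFD, 2.76, 3.52 and 2.35 in CLE and 3.3, 3.36 and 2.89 in LU mice and -0.67 ± 0.13 (adjusted p = 0.001). The other 3 were *Tfam*, *Tfb2m* and *Twnk*, which serve transcription and replication of mitochondrial DNA. *Tfb2m* and *Twnk* were higher in CLE and in LU than in HFD at the adjusted p, 2 of 17 in each comparison, against 15.5% and 13.2% of all genes. *Ppargc1a*, the coactivator PGC1α, was low and variable at 2.44, 2.65 and 1.23 FPKM in ND, 0.996, 1.89 and 1.01 in HFD, 0.797, 2.72 and 0.783 in CLE and 3.32, 1.3 and 1.1 in LU mice, did not pass in any comparison, and had -0.42 ± 0.34 (adjusted p = 0.31) in HFD. *Nrf1*, *Gabpa*, *Yy1* and *Esrra*, the factors or family members whose letters were searched in the promoters, did not pass in HFD against ND.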

How the data were processed

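RNA-seq libraries of epididymal adipose tissue were prepared from mRNA with a TruSeq kit. Per the submitters' processing notes, CASAVA 1.8.2, Bowtie2 2.2.3, TopHat2 2.0.12 and Cufflinks 2.2.1 were used; the genome build is not given in the sources used here. The authors deposited 1 table of FPKM per transcript, normalized for transcript length and library size, with no read counts, so no count test was run. Of its 15 FPKM columns 12 were matched to the 12 samples, and 3 matched no sample and were not used. Columns of the authors' own comparisons (fold changes and their tests) were not used. FPKM cannot show how many reads stand behind a value, short transcripts are estimated less precisely, and reads from processed pseudogenes, which many subunit genes have, can be split among copies.

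Rows with an Ensembl transcript ID, plain or assembled with class code = or j, were summed per gene (22947 genes) with GENCODE M21 gene IDs; 87.6% of the plain rows found there had the same start and end. Subunit genes had 400 rows, 281 plain, 9 with code = and 110 with code j. log2(FPKM + 1) was fitted with limma 3.58.1 in R 4.3.3, 1 coefficient per group over all 12 libraries, with Benjamini-Hochberg adjustment over 12775 genes, and checked on simulated data. *Ndufb9*, *Atp5c1* and *Cox7a1* were also compared between HFD and ND by exact permutation (scipy 1.17.1), as were isoform shares. The exact permutation p was 0.1 for *Ndufb9* and for *Atp5c1* and 0.4 for *Cox7a1*. With 3 against 3 mice this test cannot go below 0.1. Nothing in the labels says more than that the mice are separate animals. The limma p-values rest on the spread between the sequenced mice within groups, pooled over the 4 groups of 3 such mice and moderated across genes. The spread in the full groups is not known.

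Alternatives covered scaling, filters, the pseudocount, the transcripts summed, moderation, weights, the letter R, a replicate block and leaving out each mouse. The subunit genes, the pathway and marker lists and the tests were chosen with earlier results of these data known. Named were, per complex, the 3 called subunits with the largest change in each direction of HFD against ND and of CLE and LU against HFD, the isoform sets, the core subunits, subunits at 0 or under the filter, those called between CLE, LU and ND (at most 5 a comparison), and up to 2 called genes per pathway list. Genes outside this rule (*Ndufb5*, *Ndufc1*, *Ndufa11*, *Ndufa3*, *Atp5sl* and other genes named only in a count) were chosen after their values were seen. One subunit that the rule names is not reported here. Mitochondrially encoded subunits and *Cox4i1* were not analysed here.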

Additional observations from a re-analysis of the deposited data

How the results depend on the processing

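Refits were counted for 22 calls, those of the subunits that the naming rule picked by the size of their change. Of 574 refits in all, 550 kept the call, 24 lost it and none turned its direction. *Ndufa5* in CLE against ND made up 12 of the losses. The other calls named in the text, some of them close to the 1.5-fold limit, are not in this count. The median of all genes moved by less than 0.1 (log2) under every scaling. Using the adjusted p alone in place of both limits raised the lower counts from 40 to 63 in HFD against ND, from 1 to 9 in CLE against ND and from 0 to 12 in LU against ND, and the higher counts from 1 to 34 for CLE and from 5 to 44 for LU against HFD.

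With the libraries without the letter R, a choice made after seeing the data in which the lone ND mouse is assumed to vary like the others, HFD against ND gave 23 subunits called lower, 37 lower at the adjusted p and a median of -0.42, and *Cox7a1* was called higher. LU against HFD then gave 16 calls, CLE against HFD 19 at the adjusted p, CLE against LU a median of -0.18, and CLE and LU against ND no subunit lower, with medians of -0.15 and -0.0059. With the R libraries only, the median was 0.047 for CLE against LU and -0.41 for LU against ND, and no subunit passed in CLE or LU against ND (0 in each); HFD has no such library.

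CLE against HFD called 2 under quantile normalization and 2 without class code j. LU against HFD called 3 under median ratios and 8 with the highest transcript. For CLE against ND, the 1 call became 0 with equal totals, only the groups compared, or the highest transcript, and the 9 at the adjusted p became 5 without a filter, 15 with quantile normalization, 0 with only the groups compared, 4 with letter R as covariate, 1 with the highest transcript and 3 without class code j. For LU against ND, quantile normalization called 1, and the 12 became 1 with only the groups compared, 7 with the highest transcript and 6 without class code j. With no filter, *Cox6a2* was called higher in HFD against ND and lower in CLE against HFD. The cause of these shifts was not tested.

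With the replicate block on the mouse numbers that groups share (2 mice a group), 0 subunits passed in CLE against ND (median -0.18) and 0 in LU against ND (median -0.19). The other 4 comparisons share fewer than 2 numbers. Deviations from the group means of same-numbered mice correlated at r = -0.099 and -0.0019 for CLE and ND and at 0.097 and 0.19 for LU and ND. Mice of unlike numbers were not compared, so these values cannot decide whether the numbers pair the samples.

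Leaving out 1 mouse at a time, the ranges were 31 to 47 called lower, 55 to 66 at the adjusted p and a median of -0.70 to -0.51 in HFD against ND (lowest counts and smallest median without ND mouse 3). They were 1 to 3 calls and 17 to 37 at the adjusted p for CLE against HFD, 2 to 16 and 25 to 50 for LU against HFD, a median of -0.15 to 0.010 for CLE against LU, 0 to 2 calls and 0 to 11 at the adjusted p for CLE against ND, and 0 to 2 and 1 to 19 for LU against ND. Read depth cannot be weighed, as no counts were given.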

Other observations

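Subunits listed under a neighbouring gene's name were read by their gene IDs and lie outside the 79. *Ndufb8*, an accessory subunit of complex I, was at 174, 195 and 162 FPKM in ND, 89.2, 91.4 and 82.5 in HFD, 136, 132 and 126 in CLE and 128, 148 and 121 in LU mice. All HFD mice lay below all others, and the change was -1.003 ± 0.10 (adjusted p = 9.9e-06) in HFD against ND, 0.57 ± 0.10 (adjusted p = 0.0011) in CLE against HFD and 0.58 ± 0.10 (adjusted p = 0.0015) in LU against HFD (limma). *Ndufb2*, another accessory subunit, was at 66.4, 101 and 82.3 FPKM in ND, 54.7, 60.1 and 56.4 in HFD, 69.2, 72.8 and 68.7 in CLE and 68.5, 92.2 and 71.5 in LU mice, with -0.52 ± 0.15 (adjusted p = 0.011) in HFD. *Atp5o*, which links the head of the ATP synthase to the peripheral stalk, was at 114, 153 and 136 FPKM in ND, 96.8, 109 and 104 in HFD, 119.5, 115 and 116 in CLE and 119, 139 and 123 in LU mice, with -0.37 ± 0.11 (adjusted p = 0.014). *Ndufs8*, a core iron-sulfur subunit of complex I, was at 9.05, 10.2 and 9.62 FPKM in ND, 7.32, 9.48 and 7.15 in HFD, 9.19, 4.87 and 6.89 in CLE and 6.65, 5.87 and 7.49 in LU mice and did not pass, with -0.25 ± 0.17 (adjusted p = 0.26). These genes share rows or loci with a neighbour, and their values may hold reads of both.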
